A study of Mus musculus with 10 samples.

Results

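The ubiquitin-proteasome genes of the mouse brain were read on dual-colour arrays that set brain RNA of Cin85-/- mice against a pool of wildtype brain RNA. The set holds every probe with a single gene symbol that names a proteasome gene (Psma to Psmg), a ubiquitin-activating enzyme (Uba), a ubiquitin-conjugating enzyme (Ube2), the ligases Ube3a, Ube3b and Ube3c, or a ubiquitin-specific protease (Usp). This rule used names alone and no measured value. It found 141 probes for 98 genes, out of 14030 probes with a single symbol for 9930 genes and 20355 probes in all. By symbol these were 17 genes of the proteasome core, 21 of the proteasome regulators, 26 of the enzymes that attach ubiquitin or a ubiquitin-like protein and 31 deubiquitinases. The 2 assembly chaperones with a Psmg symbol and Psmc3ip are given apart. The regulators include the chaperones Psmd5, Psmd9 and Psmd10 and the binding protein Psme3ip1. A probe was tested where both arrays of at least 4 mice had a value, which left 120 probes for 88 genes.

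The mutants were 5 male mice of the Cin85-/- line, 15 weeks old. The line is named for the adaptor protein CIN85, and the loss of the protein was not checked here. Each mouse was hybridised on 2 arrays, once with its RNA in Cy5 and once in Cy3, always against the same pool from wt males of 15 weeks. The animals listed for the pool number 5, whereas the labelling text gives another number. The sources used here give neither the genetic background of the strain nor the design of the knockout allele. The titles name brain, while the mutant channel is labelled with the unexplained abbreviation Kdn. A ratio gives no level, so the tissue could not be checked against its markers. With 1 pool as the only control, no comparison here contains the spread between wildtype animals, and in whole brain a change in cell number and a change in RNA per cell cannot be told apart.

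Ubiquitin is a small protein that cells attach to other proteins through a relay of an activating enzyme (E1), a conjugating enzyme (E2) and a ligase (E3). Chains of ubiquitin send many proteins to the proteasome, in which a barrel-shaped 20S core with an inner ring pair of beta subunits does the cutting and a 19S cap recognises, unfolds and feeds the substrate. Deubiquitinases remove the mark again. In neurons the system turns over synaptic proteins, and CIN85 itself binds the Cbl ubiquitin ligases that mark activated receptors for uptake from the cell surface.

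Values are log2 ratios as the authors deposited them, after each array was centred on its median. The mean of the 2 arrays of a mouse is called the pair mean. The ratio with the mutant in Cy5 minus that with the mutant in Cy3, divided by 2, is called the dye term. No source used here gives the numerator of the ratios, or tells whether the columns with the mutant in Cy3 had been turned. If they had, the pair mean estimates the difference from the pool and the dye term the dye bias. If they had not, the roles are exchanged. Both quantities are therefore given, and no sign below says which sample was higher.

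Several measurements of the whole series bear on these values. Arrays of the same dye orientation resembled each other across probes, with rank correlations from 0.17 to 0.41 with the mutant in Cy5 and from -0.081 to 0.37 with it in Cy3. Across orientations the correlations lay between -0.42 and 0.069. The extreme ratios of each array, of a single size between 16.4 and 17.6, were positive on all 5 arrays with the mutant in Cy5 and negative on all 5 with it in Cy3. The array of mouse 3 with the mutant in Cy3 stood apart, with a median absolute deviation of 1.06 against 0.335 to 0.725 on the other 9 and with 264 extreme ratios against 65 to 117. Leaving mouse 3 out turned the sign of the pair mean in 29 of the 120 tested member probes and moved a further 44 by over 1.5 times. For the member means printed here, the value without mouse 3 follows where the sign turned, or where it moved by over 1.5 times and by at least 0.1.

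No proteasome or ubiquitin enzyme probe passed the test against the wildtype pool, which sets the mean against the spread between the 5 mice. For the pair mean, 0 of the 120 member probes had an adjusted p under 0.05 by limma, as had 0% of the 16939 probes tested, and the smallest adjusted p of a member was 0.911. An unadjusted p under 0.05 was found for 5 member probes (4.17%), 3 negative and 2 positive, against 3.73% of all probes. A single sign in every mouse was found in 3 of the 98 member probes with values in all 5 (3.06%), against 7.01% of all such probes. Both shares are near or under the background. The 95% interval of the mean lay within 1.5-fold for 78 of the 120 probes (65.0%), compared with 60.7% over all probes, and within 2-fold for 98 (81.7%), compared with 85.8%. For the dye term the interval lay within 1.5-fold for 45 of the 120 probes (37.5%), compared with 38.9% over all probes, and within 2-fold for 92 (76.7%), compared with 79.5%.

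On the gene level, with the probes of a gene averaged, the median of the 88 member genes was -0.041, and 55 of them lay below 0 and 33 above. The 8711 named genes tested had a median of -0.0033, with 50.8% of them negative. The regulators of the proteasome had the most negative median of the groups, -0.11 over 19 genes, of which 14 were negative. Their medians in mice 1 to 5 were -0.038, -0.093, -0.11, -0.019 and 0.022, so 4 of 5 mice lay below 0, and without mouse 3 the median was -0.048. The core gave a median of -0.025 over 13 genes, of which 7 were negative. Its mouse medians of -0.051, -0.055, 0.11, -0.041 and -0.14 fell on both sides of 0. The median of the E1, E2 and E3 genes was -0.046, with 15 of 23 genes negative and mouse medians from -0.070 to 0.084. Deubiquitinases had a median of -0.029, 17 of 30 genes negative and mouse medians from -0.11 to 0.099. The ranges of the mouse medians of the 4 groups overlapped, and the differences between groups were not tested.

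**Figure D1:**
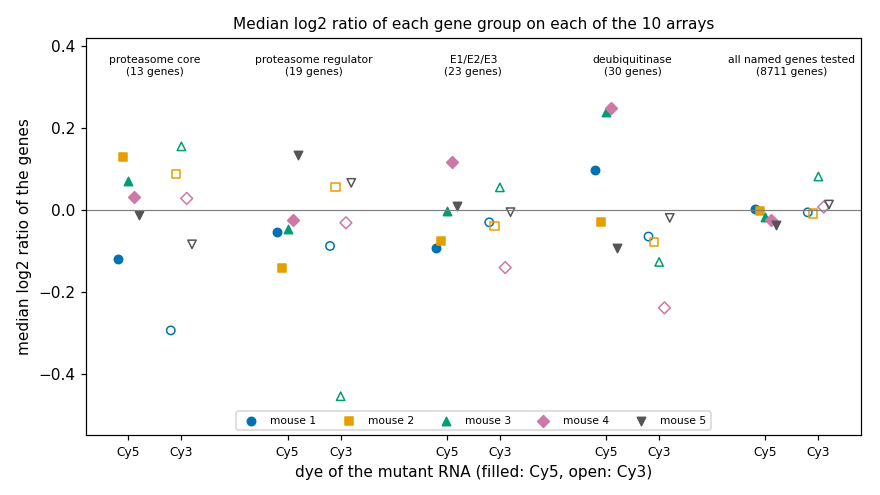
Median log2 ratio of the genes of each group (y axis) on each of the 10 arrays, with the dye of the mutant RNA on the x axis, filled symbols for Cy5 and open symbols for Cy3, and 1 symbol shape per mouse. The most distant point is that of the regulators on the Cy3 array of mouse 3, at -0.45, while the medians of all 8711 named genes stay between -0.036 and 0.082.

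Single arrays show where these medians come from. For the regulators the array medians with the mutant in Cy5 were -0.055, -0.14, -0.046, -0.025 and 0.13 in mice 1 to 5. With the mutant in Cy3 they were -0.088, 0.056, -0.45, -0.032 and 0.066. The value of mouse 3 in Cy3 was thus the farthest from 0, on the array with the widest spread. Deubiquitinases had medians of 0.098, -0.030, 0.24, 0.25 and -0.092 with the mutant in Cy5, and all 5 medians were negative with it in Cy3, from -0.24 to -0.020.

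The alpha subunits form the outer rings of the 20S core and control its gate. Of the 5 genes tested, 4 were negative, and their means ran only from -0.083 to 0.078. Psma4 varied least, with pair means of -0.082, -0.084, -0.10, 0.095 and -0.24 in mice 1 to 5 and a mean of -0.083 ± 0.12 (SD, n = 5). Psma2 had 0.027, 0.16, -0.036, -0.32 and -0.16, a mean of -0.065 ± 0.18 (SD, n = 5). Psma6 had 0.37, 0.25, -0.089, -0.54 and 0.39, a mean of 0.078 ± 0.40 (SD, n = 5). In all 5 alpha genes mice lay on both sides of 0. For each of these 5 probes the 95% interval stayed within 1.5-fold, for the pair mean and for the dye term alike.

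The beta subunits carry the active sites, and 4 of 6 genes outside the immunoproteasome were positive. Psmb5, which holds the chymotrypsin-like site, had pair means of -0.21, -0.021, 0.24, -0.088 and -0.13, a mean of -0.043 ± 0.17 (SD, n = 5). The 95% interval of Psmb5 ran from -0.29 to 0.21, and its adjusted p was 0.948 by limma. Psmb6, which holds the caspase-like site, was read by 2 probes. Probe 15970 gave -0.68, 0.33, 2.25, -0.53 and -0.12, a mean of 0.25 ± 1.18 (SD, n = 5), and probe 8920 gave 0.13, 0.95, 0.40 and -0.29 in mice 2 to 5, a mean of 0.30 ± 0.52 (SD, n = 4). Mouse 3 was the highest on both, and without it the means were -0.25 and 0.080. Psmb2, a structural beta subunit, showed the same dependence, with -0.014, -0.055, 1.51 and -0.21 in mice 1, 2, 3 and 5. Its mean was 0.31 ± 0.81 (SD, n = 4), and -0.094 without mouse 3. Psmb4, another structural beta subunit, had means of -0.071 ± 0.40 and -0.31 ± 0.52 (SD, n = 5 each) on its 2 probes. Psmb11, the beta subunit known from thymic cortex, had 0.018, 0.14, 0.17, 0.40 and -0.023, a mean of 0.14 ± 0.17 (SD, n = 5).

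Many proteasome genes are known to be raised together by the transcription factor NRF1 (Nfe2l1) through antioxidant response elements, so the promoters of the core genes that hold the letters of such an element are shown. The windows run from 250 bases before to 50 bases after the start of the gene, from RefSeq on GRCm38.p6, and capitals mark TGACNNNGC, searched on both strands with N for any base. Of the 98 member genes, 80 were matched to a window by symbol, and of the 14 core genes matched, 2 held the letters (14.3%), against 14.0% of all 27025 genes with a window. In Psmb5 (chr14:54617946-54618245, minus strand) the match begins 47 bases before the start, and in Psmb6 (chr11:70525107-70525406, plus strand) 9 bases before it.
Psmb5: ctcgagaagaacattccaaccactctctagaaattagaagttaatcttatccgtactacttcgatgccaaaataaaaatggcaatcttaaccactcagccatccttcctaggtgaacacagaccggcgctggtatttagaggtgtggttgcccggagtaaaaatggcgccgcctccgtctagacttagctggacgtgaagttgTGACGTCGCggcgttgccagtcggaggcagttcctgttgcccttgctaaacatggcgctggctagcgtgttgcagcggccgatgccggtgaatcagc
Psmb6: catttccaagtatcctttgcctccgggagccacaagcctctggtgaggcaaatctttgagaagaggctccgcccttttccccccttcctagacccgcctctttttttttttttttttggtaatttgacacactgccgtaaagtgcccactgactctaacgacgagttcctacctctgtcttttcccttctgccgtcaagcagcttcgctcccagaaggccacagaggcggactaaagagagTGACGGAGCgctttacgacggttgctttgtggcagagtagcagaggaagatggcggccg
A match is a description of letters and not of a binding site. Among the regulators 3 of 19 matched genes held the letters (15.8%), namely Psmc6, Psmd9 and Psme4. The share was 5 of 21 for the E1, E2 and E3 genes (23.8%), 6 of 24 for the deubiquitinases (25%) and 16 of 80 for all members (20.0%). Over all members, 15 tested genes with the letters had a median pair mean of -0.047 and 59 without them had -0.031. The difference was not tested. Nfe2l1 itself gave -0.011 ± 0.19 (SD, n = 5) on probe 2017. Its other probe, 209, gave -4.07 ± 3.76 (SD, n = 4), with a dye term of 4.65 ± 5.22 (SD, n = 4). Both SDs were near the size of the mean itself. The adjusted p of the pair mean of that probe was 0.911 by limma.

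Immunoproteasome subunits replace the standard active sites in cells exposed to interferon. Psmb8, which takes the place of Psmb5, had pair means of -0.051, -0.065, 0.50, 0.095 and 0.046, a mean of 0.11 ± 0.23 (SD, n = 5). Mouse 3 was high and the other 4 lay near 0, with a mean of 0.0064 without it. Psmb10, which takes the place of Psmb7, had -1.07, -0.57, -0.0055, 0.24 and -1.35, a mean of -0.55 ± 0.68 (SD, n = 5). Its 95% interval, -1.17 to 0.074, included 0, and limma gave an adjusted p of 0.911. With the mutant in Cy5 its ratios ran from -2.21 in mouse 5 to 1.42 in mouse 4, and with the mutant in Cy3 all 5 were negative, from -1.37 to -0.49. Of the antigen presentation genes that respond to the same signal, B2m had a mean of -0.33 ± 0.62 (SD, n = 4). H2-K1 had -0.10 ± 0.88 and Tap1 -0.12 ± 0.49 (SD, n = 5 each). None of them passed the threshold, and each SD was larger than the size of its mean. C1qa, the tested microglial marker, had -0.17 ± 0.088 (SD, n = 5). The part of these genes in the values of Psmb8 and Psmb10 was not tested.

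**Figure D2:**
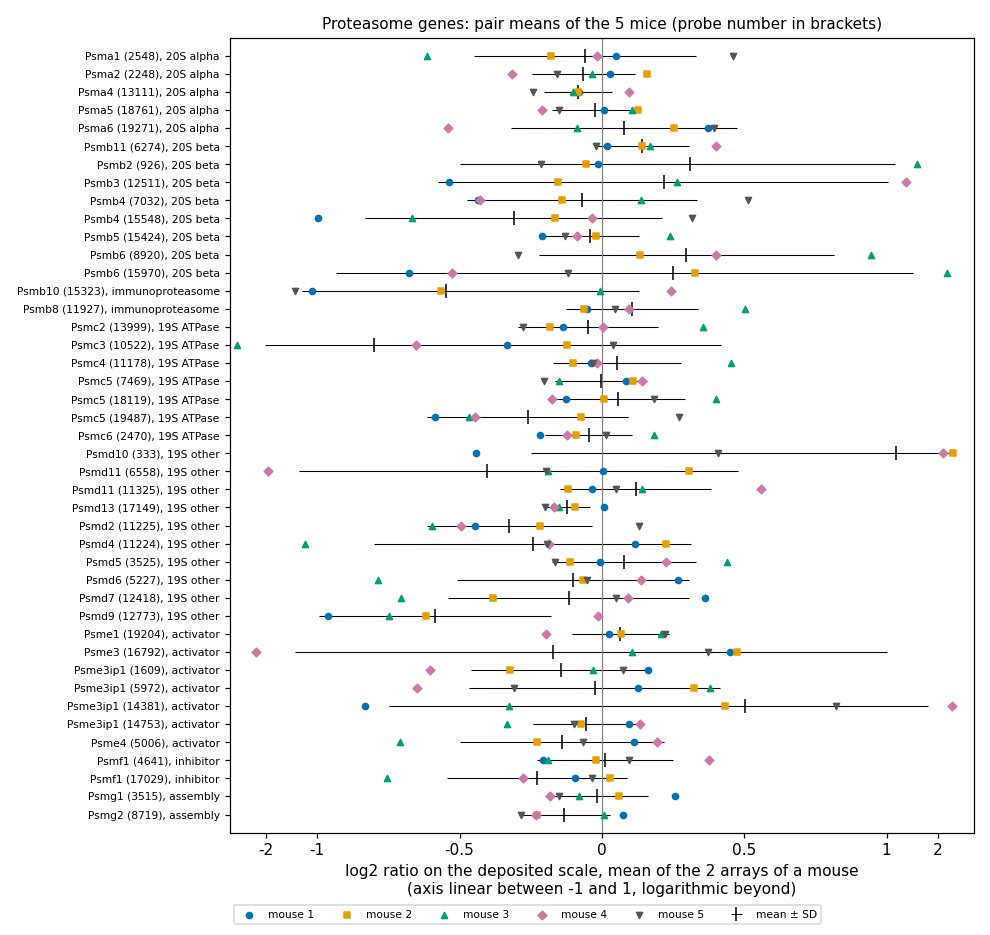
Pair means of the proteasome probes in each of the 5 mice (x axis, log2 ratio, linear between -1 and 1 and logarithmic beyond), with 1 row per probe, 1 symbol per mouse, and the mean ± SD in black. Psmc3ip is not drawn. Psmd13 is the narrowest row, with an SD of 0.081, and mouse 3 alone makes the low point of Psmc3 at -2.93 and the high point of Psmb2 at 1.51.

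The 19S cap begins with a ring of ATPases that unfold the substrate. Of the 5 ATPase genes tested, 4 were negative, with a median of -0.048. Psmc3, the ATPase Rpt5, had pair means of -0.33, -0.12, -2.93, -0.65 and 0.039, a mean of -0.80 ± 1.22 (SD, n = 5). Without mouse 3, where both dye orientations were low, at -3.30 and -2.56, the mean was -0.27. Psmc6, the ATPase Rpt4, had -0.22, -0.093, 0.18, -0.12 and 0.014, a mean of -0.047 ± 0.15 (SD, n = 5). Psmc2 and Psmc4 gave -0.048 ± 0.25 and 0.052 ± 0.23 (SD, n = 5 each), and -0.15 and -0.048 without mouse 3. Psmc5, the ATPase Rpt6, was read by 3 probes with means of -0.0039 ± 0.16, 0.058 ± 0.24 and -0.26 ± 0.35 (SD, n = 5 each), none of them past the threshold by limma. Without mouse 3 the first of these was 0.033 and the second -0.028.

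The rest of the cap holds the ubiquitin receptors, the lid and several chaperones, and 7 of 9 such genes tested were negative, with a median of -0.12. Psmd2, the scaffold subunit Rpn1, had pair means of -0.45, -0.22, -0.60, -0.49 and 0.13. Its mean was -0.32 ± 0.29 (SD, n = 5), and its 95% interval ended just below 0, from -0.65 to -0.0020. Limma gave it an adjusted p of 0.911. Mouse 5 alone was positive, and the means left after dropping each mouse ran from -0.44 to -0.26. Psmd9, an assembly chaperone of the ATPase ring, had -0.96, -0.62, -0.75 and -0.014 in mice 1 to 4, a mean of -0.59 ± 0.41 (SD, n = 4) with the same adjusted p. Its array ratios did not share a sign, since with the mutant in Cy5 they ran from -1.54 to 1.90. Psmd13, the lid subunit Rpn9, had 0.0065, -0.095, -0.15, -0.17 and -0.20, a mean of -0.12 ± 0.081 (SD, n = 5), the smallest SD of all tested member probes. Psmd4, the ubiquitin receptor Rpn10, had 0.12, 0.23, -1.18, -0.19 and -0.19, a mean of -0.24 ± 0.56 (SD, n = 5). Mouse 3 alone set this mean, which was -0.0094 without it. The most positive proteasome gene was Psmd10, the oncoprotein and chaperone gankyrin, with -0.44, 2.46, 2.13 and 0.41 in mice 1, 2, 4 and 5 and a mean of 1.14 ± 1.38 (SD, n = 4). The probe of Psmd10 was also among the noisiest, with a 95% interval from -0.22 to 2.49. For Psmd7, the partner of the deubiquitinase Psmd14 in the lid, the mean was -0.12 ± 0.42 (SD, n = 5), and for Psmd6 it was -0.10 ± 0.41 (SD, n = 5). Both turned positive without mouse 3, at 0.030 for Psmd7 and 0.071 for Psmd6.

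Activators open the core without ATP. Psme1, a subunit of the PA28 ring that interferon raises, had pair means of 0.025, 0.066, 0.21, -0.20 and 0.22, a mean of 0.064 ± 0.17 (SD, n = 5). Psme3, the nuclear PA28 gamma, had 0.45, 0.48, 0.10, -2.27 and 0.37, a mean of -0.17 ± 1.18 (SD, n = 5). Mouse 4 alone was negative, on both of its arrays (-2.49 and -2.05), and without it the mean was 0.35. Psme4, the activator PA200, had -0.14 ± 0.36 (SD, n = 5), and 0.0035 without mouse 3. Psme3ip1, a protein that binds PA28 gamma, had means from -0.14 to 0.50 on 4 probes, and from -0.17 to 0.71 without mouse 3. Psmf1, an inhibitor of the core in vitro, gave 0.011 ± 0.24 and -0.23 ± 0.32 (SD, n = 5 each) on its 2 probes, the latter -0.095 without mouse 3. Psmg1 and Psmg2, which pair to build the alpha ring, had pair means of -0.019 ± 0.18 and -0.13 ± 0.16 (SD, n = 5 each). Psmc3ip, a recombination protein given apart from the ATPases, gave 0.45 ± 0.58 (SD, n = 4).

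Ubiquitin enters the relay through an E1. Only Uba7, the E1 of the ubiquitin-like protein ISG15, was tested, with pair means of 0.094, -0.58, 0.017, 0.13 and 0.011. Mouse 2 was low and the other 4 lay near 0, so that the mean of -0.067 ± 0.29 (SD, n = 5) became 0.062 without it. Uba6, which activates ubiquitin and FAT10, had values on 3 arrays and was not tested.

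The 19 E2 genes tested had means from -0.90 to 0.25 around a median of -0.046, and 13 of them lay below 0. Ube2d3 had the smallest p of all member probes. Like Ube2d1 and Ube2d2a it belongs to a family of near-identical E2 enzymes that work with many ligases, among them those of the Cbl family. Ube2d3 had pair means of -0.36, -0.81, -1.23 and -1.20 in mice 1, 2, 3 and 5, a mean of -0.90 ± 0.40 (SD, n = 4). Its 95% interval ran from -1.37 to -0.43 and its adjusted p was 0.911 by limma, so the value is not a call among 16939 probes. Its single arrays were less uniform. With the mutant in Cy5 they were -0.24, -2.29, -0.62, 0.77 and -0.62 in mice 1 to 5, and with the mutant in Cy3 -0.49, 0.68, -1.83 and -1.78 in mice 1, 2, 3 and 5. The positive ratio of mouse 4 has no partner and is not in the mean, and a fit over all single arrays with a dye term gave -0.73. Neither relative went with it, since Ube2d1 gave -0.071 ± 0.20 and Ube2d2a -0.039 ± 0.31 (SD, n = 5 each). Cross-hybridisation between the members of this family was not tested.

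Ube2r2, an E2 of the cullin ligases, had 1 of the 3 probes with the same sign in all mice. Probe 3678 gave 0.083, 0.023, 0.40, 0.17 and 0.57, a mean of 0.25 ± 0.23 (SD, n = 5), with limma's adjusted p at 0.911, whereas probe 1572 gave -0.43, 0.10, -0.49, -0.13 and -0.053, a mean of -0.20 ± 0.25 (SD, n = 5). The probes of this gene thus pointed in opposite directions. Ube2f, an E2 for NEDD8, had -1.60, -0.47, -0.020 and -0.45 in mice 1, 2, 3 and 5, a mean of -0.63 ± 0.68 (SD, n = 4) and -0.31 without mouse 1. Ube2l3, which serves HECT and RBR ligases such as parkin, had means of 0.22 ± 0.22, 0.040 ± 0.25 and -0.082 ± 0.23 (SD, n = 5 each) on 3 probes. Ube2n, the E2 of lysine-63 chains, gave -0.0035 ± 0.33 (SD, n = 5), and -0.12 without mouse 3. Ube2k, which builds lysine-48 chains, gave 0.11 ± 0.19 (SD, n = 5) on probe 14483 and -0.32 ± 0.64 (SD, n = 4) on probe 16177. On the 2 better-filled probes of Ube2b, an E2 of the Rad6 type, the means were 0.0072 ± 0.10 and -0.034 ± 0.17 (SD, n = 5 each), the former -0.034 without mouse 3. None of these genes passed the threshold by limma.

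**Figure D3:**
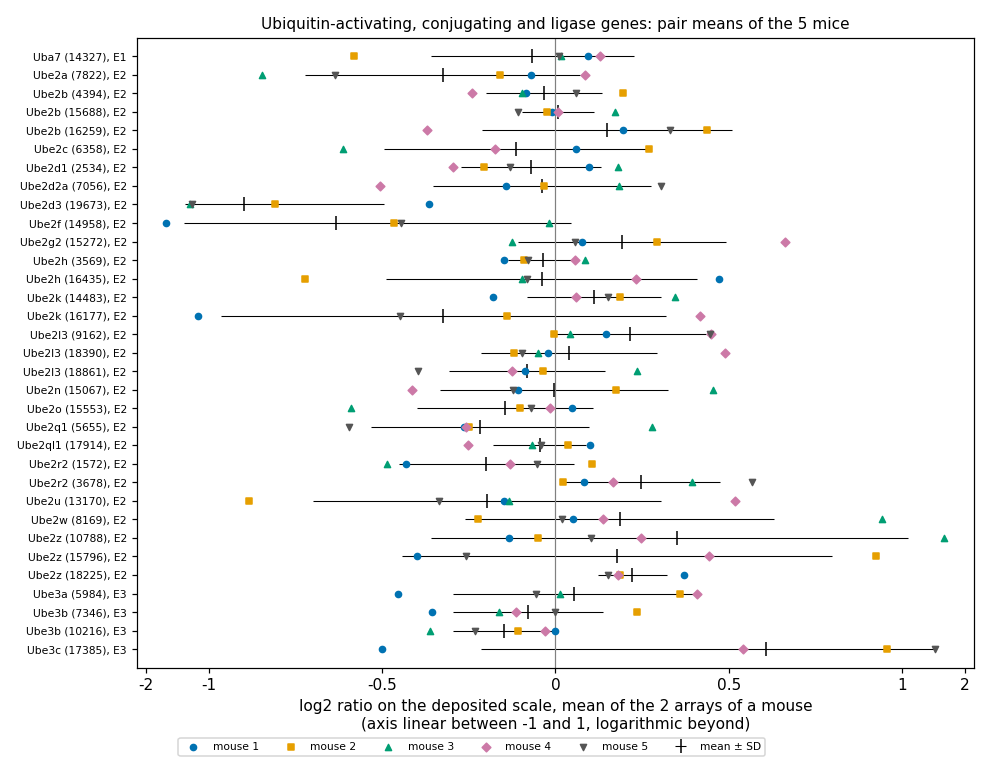
Pair means of the E1, E2 and E3 probes in each of the 5 mice (x axis, log2 ratio, linear between -1 and 1 and logarithmic beyond), with 1 row per probe, 1 symbol per mouse, and the mean ± SD in black. The 4 values of Ube2d3 all lie below 0, from -1.23 to -0.36, and those of Ube2r2 probe 3678 all lie above it.

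Ube3a, Ube3b and Ube3c are ligases of the HECT type, which take ubiquitin onto themselves before passing it on. Ube3a, whose loss in neurons causes Angelman syndrome, had pair means of -0.45, 0.36, 0.012, 0.41 and -0.056, a mean of 0.054 ± 0.35 (SD, n = 5). Mice lay on both sides of 0, and the 95% interval ran from -0.31 to 0.42. Ube3b probe 10216 was negative in all 5 mice, with -0.0020, -0.11, -0.36, -0.030 and -0.23 and a mean of -0.15 ± 0.15 (SD, n = 5). The adjusted p of this probe was 0.911 by limma, and the other Ube3b probe, 7346, gave -0.079 ± 0.22 (SD, n = 5). Ube3c, a proteasome-associated ligase, had -0.50, 0.96, 0.54 and 1.43 in mice 1, 2, 4 and 5, a mean of 0.61 ± 0.82 (SD, n = 4). Mouse 1 alone was negative, and without it the mean was 0.98.

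Deubiquitinases of the Usp class were the largest group, with 30 genes tested. Usp53, a protein of tight junctions, was the only one of them with values in all 5 mice and a single sign, at 0.20, 0.39, 0.50, 0.49 and 0.066. Usp31, measured in 4 mice, was negative in each, with a mean of -0.14 ± 0.18 (SD, n = 4). For Usp53 the mean was 0.33 ± 0.19 (SD, n = 5) on probe 1750, and its 95% interval lay above 0, from 0.067 to 0.59. Over all probes tested its adjusted p was 0.911 by limma. The positive pair means came from the arrays with the mutant in Cy3, which read 0.64, 0.62, 1.07, 0.93 and 0.25, while those with it in Cy5 read -0.25, 0.17, -0.079, 0.060 and -0.12. The orientations of probe 1750 did not overlap. The other Usp53 probe, 8922, was not tested and had negative pair means, of -0.26, -0.325 and -1.07 in mice 1, 2 and 5. Usp40 had 0.27, -0.090, 1.67, 0.50 and 0.98, a mean of 0.67 ± 0.68 (SD, n = 5) with the same adjusted p, and 0.42 without mouse 3. For Usp40 as well the high ratios were those of the Cy3 arrays, up to 3.69 in mouse 3, against at most 0.32 with the mutant in Cy5.

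Deubiquitinases with known roles in endocytosis and in neurons did not pass the test either. Usp8, which acts on receptors at the endosome, had pair means of 0.11, 0.10, -0.17, -0.12 and -0.25 on probe 19949, a mean of -0.065 ± 0.16 (SD, n = 5). Its other probe, 12334, gave 0.19 ± 0.72 (SD, n = 5), and -0.080 without mouse 4. Usp9x, an X-linked deubiquitinase of neurons, had -0.30, 0.062, 0.79, -0.26 and -0.073, a mean of 0.046 ± 0.44 (SD, n = 5) that turned to -0.14 without mouse 3. Usp7, which acts on Mdm2 and p53, was read by 4 probes with means from -0.20 to 0.094, and Usp15 by 4 probes with means from -0.29 to 0.16. Without mouse 3 these ranges were -0.34 to 0.098 for Usp7 and -0.12 to 0.28 for Usp15. Usp46, which acts on glutamate receptors, gave 0.078 ± 0.11 and 0.20 ± 1.04 (SD, n = 5 each), the latter -0.23 without mouse 3. For Usp19, an enzyme of the endoplasmic reticulum, the mean of 1.76 ± 3.96 (SD, n = 4) came from an extreme ratio of 16.9 on the Cy5 array of mouse 4. The other Usp19 pair means were 0.18, 0.17 and -0.95, with a mean of -0.20.

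**Figure D4:**
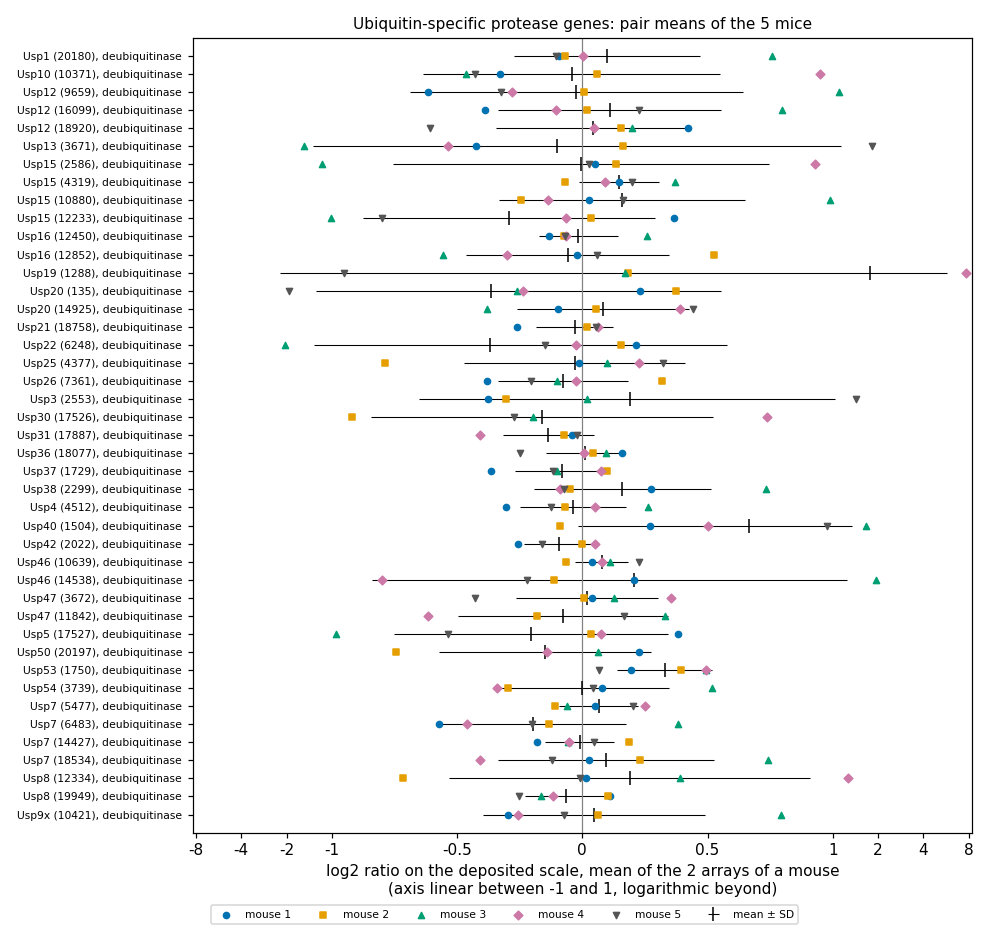
Pair means of the Usp probes in each of the 5 mice (x axis, log2 ratio, linear between -1 and 1 and logarithmic beyond), with 1 row per probe, 1 symbol per mouse, and the mean ± SD in black. Usp53 is the row with all 5 mice above 0, from 0.066 to 0.50, and the point of Usp19 at 7.64 is the pair mean of mouse 4, which holds the extreme ratio of 16.9.

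The dye term repeated between mice far more often than the pair mean, for members and for the array as a whole. Of the 120 member probes, 38 had a dye term with an unadjusted p under 0.05 (31.7%), against 27.6% of all probes, and 36 of 98 kept a single sign over the 5 mice (36.7%), against 30.5%. No member passed after adjustment by limma, as 0% of all probes did, with a smallest adjusted p of 0.0988. Ube3b probe 7346 had the smallest p of the members. Its ratios were 0.10, 0.78, 0.49, 0.63 and 0.54 with the mutant in Cy5 and -0.81, -0.31, -0.81, -0.85 and -0.54 with it in Cy3, and the orientations did not overlap. This gave a dye term of 0.59 ± 0.11 (SD, n = 5). Psmc5 probe 18119 had 0.51, 0.60, 0.73, 0.92 and 1.21 in Cy5 and -0.76, -0.59, 0.069, -1.27 and -0.84 in Cy3, a dye term of 0.74 ± 0.32 (SD, n = 5). Both reached an adjusted p of 0.0497 by limma when the arrays were also scaled to the same spread. In that setting 257 of 16939 probes passed. Over the 8 settings run under this reading, the smallest adjusted p of a member lay between 0.0497 and 0.273.

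Ube2c, the E2 of the anaphase-promoting complex, had 1.41 ± 0.64 (SD, n = 4), and Psmd4 had 0.94 ± 0.78 (SD, n = 5). Usp21, a histone deubiquitinase, had 0.66 ± 0.17 (SD, n = 4), and Usp26, which is known from testis, had 0.55 ± 0.16 (SD, n = 5). The steadiest was Usp4, with dye terms of 0.55, 0.40, 0.41, 0.44 and 0.41 in mice 1 to 5 and a mean of 0.44 ± 0.064 (SD, n = 5). On the negative side stood Psmd5, a chaperone of the ATPase ring, with -0.92 ± 0.99 (SD, n = 5) and -0.49 without mouse 3, and Ube2h probe 3569, with -0.46 ± 0.19 (SD, n = 5). Psmg2 had -0.44 ± 0.22 and its partner Psmg1 -0.40 ± 0.14 (SD, n = 5 each), each negative in all 5 mice. In the core 0 of 15 probes had a dye term with an unadjusted p under 0.05, and the median over 13 genes was 0.053. For the regulators 10 of 26 probes (38.5%) had an unadjusted p under 0.05, for the E1, E2 and E3 probes 9 of 33 (27.3%), and for the deubiquitinases 16 of 43 (37.2%). The share over all probes was 27.6%, and the differences between the shares of the groups were not tested.

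**Figure D5:**
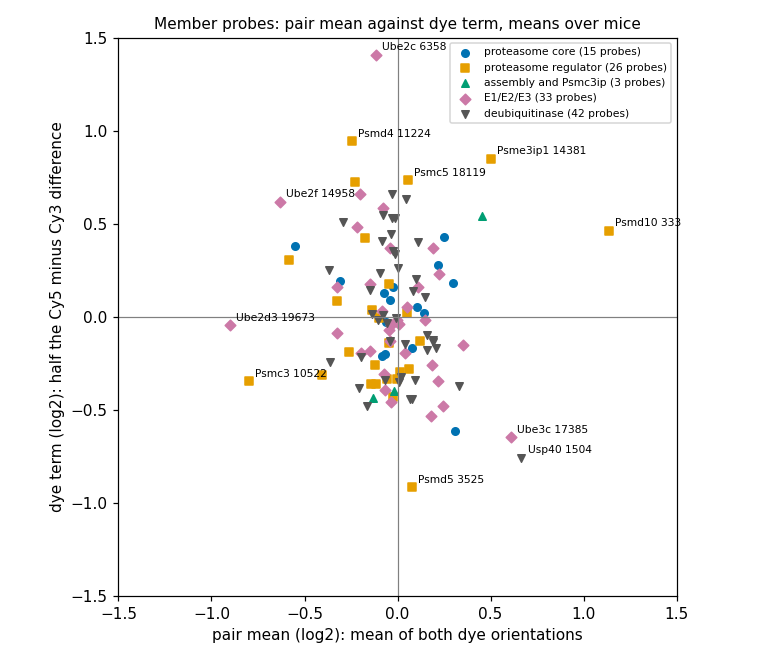
Mean pair mean (x axis, log2) against mean dye term (y axis, log2) of the member probes, with 1 symbol per role and named probes beside their points. Usp19, at 1.76 and 2.36, is left out. The points reach 1.41 along the y axis, for Ube2c, and 1.14 along the x axis, for Psmd10.

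Genes read by several probes allow the values of their probes to be set side by side. Of 21 genes with 2 or more tested probes, 14 had pair means of opposite sign and 12 had dye terms of opposite sign. Means near 0 count here as well, such as -0.076 and 0.019 for the pair means of Usp47. Without mouse 3 these were -0.21 and -0.0069, so that both were negative. The same shares over all genes with several probes were not computed, so these counts describe the members alone. Ube2r2 had dye terms of 0.66 ± 0.36 on probe 1572 and -0.48 ± 0.23 on probe 3678 (SD, n = 5 each), each with its sign in all 5 mice. Psmc5 had 0.74 on probe 18119 against -0.33 ± 0.17 on probe 7469 and -0.19 ± 0.18 on probe 19487 (SD, n = 5 each). The dye terms of probe 18119 lay between 0.33 and 1.09, those of probe 7469 between -0.61 and -0.21. Psmf1 had 0.72 ± 0.50 on probe 17029 and -0.30 ± 0.26 on probe 4641, and Usp7 had 0.53 ± 0.30 on probe 14427 and -0.34 ± 0.16 on probe 18534 (SD, n = 5 each). In each of these 4 genes a probe with dye terms of a single sign in all 5 mice stood beside a probe of the same name with the other sign in all 5. No source used here says which stretch of the transcript a probe covers. Not every gene behaved so, since both probes of Psmb4 were positive (0.13 and 0.19). All 3 of Ube2b lay near 0, between -0.043 and -0.014, and that of probe 15688 was 0.0026 without mouse 3.

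The spread between mice was like that of the array at large. The median SD of the pair mean was 0.35 over the 120 member probes and 0.34 over all probes. It was 0.30 for the E1, E2 and E3 probes, 0.32 for the regulators, 0.40 for the core and 0.41 for the deubiquitinases. Within the core the alpha subunits had a median SD of 0.18 over 5 probes and the beta subunits outside the immunoproteasome 0.52 over 8 probes. With the mutant in Cy3 the median SD over arrays of the member probes was 0.49, and it was 0.31 without the array of mouse 3.

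Members that were not tested had values on 3 to 8 of the 10 arrays, with both arrays in fewer than 4 mice. They were 21 probes, and 10 genes had no other probe, namely Psma7, Psmb1, Psmb7, Psmb9, Psmd14, Psme2, Uba6, Ube2j1, Ube2j2 and Usp39. Their signs followed the dyes, with 45 of 64 values positive with the mutant in Cy5 (70.3%) and 44 of 62 negative with it in Cy3 (71.0%). Over all 3416 untested probes these shares were 60.6% and 60.2%, and over the tested members 50.8% and 50.1%. Psmd14, the deubiquitinase of the 19S lid, read -0.76, 1.88 and 1.68 with the mutant in Cy5 (mice 1, 2 and 5) and 0.95 and -2.71 with it in Cy3 (mice 1 and 3). Psma7 read -0.019, 0.95, 1.26 and -1.96 in Cy5 and -1.97 and -3.30 in Cy3. Such values give no mean here.

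Other genes of the pathway were taken from a list of 87 names, of which 54 were tested, on 89 probes. None passed by limma for the pair mean, 23 genes were positive and 31 negative, and their median was -0.036. Of the 89 probes, 5 had a pair mean with an unadjusted p under 0.05 (5.62%, against 3.73% of all probes). All 6 ubiquitin and ubiquitin-like genes tested were negative, with a median of -0.12, as Nedd8 at -0.11 ± 0.088 and Sumo2 at -0.026 ± 0.062 (SD, n = 5 each), where 50.8% of all named genes were negative. Single probes did not share this sign, since Atg12 probe 2140 gave -1.37 ± 4.56 (SD, n = 4) beside 0.16 on probe 496, and Ufm1 probe 19153 gave 0.0011. The dye terms of these 6 genes were positive in 3 and negative in 3. Cullin ligases and the COP9 signalosome gave 6 positive and 9 negative genes, the other ligases 7 and 6, and the other deubiquitinases 5 and 4. Uchl1, the abundant neuronal ubiquitin hydrolase, had 0.16 ± 0.066 (SD, n = 5), where limma's adjusted p was 0.911. Receptors, shuttles and the segregase divided into 5 and 6, with Pomp, the chaperone that finishes the core, at 0.030 ± 0.067 (SD, n = 5). Cell type markers did not pass either. Neuronal markers gave 1 positive and 3 negative genes, the astrocyte markers 0 and 2, the oligodendrocyte marker tested 0.044, and the kidney markers, listed because of the abbreviation Kdn, 1 and 2. For the dye term, 25 of the 89 pathway probes (28.1%, and 0 after adjustment) had an unadjusted p under 0.05, near the 27.6% of all probes.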

How the data were processed

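Brain RNA of 5 Cin85-/- mice was hybridised against 1 wildtype pool on 10 arrays, 2 per mouse with exchanged dyes, per the labels' protocols. The authors deposited 1 log2 ratio per probe and array. Scanner settings, background correction, normalization, numerator and treatment of the dye swap were not given in the sources used here, and with ratios alone the signal is unknown. Genes were named through the platform annotation, and all 141 member probes matched RefSeq by Entrez ID.

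Each array was centred on its median and the 2 arrays of a mouse were averaged, so that n counts mice. Probes with both arrays in at least 4 mice (16939) were tested against 0 with limma 3.58.1 in R 4.3.3 (lmFit, eBayes), with Benjamini-Hochberg adjustment over all of them. The dye term was fitted in the same way. The procedure was also run on simulated pair means, drawn independently from normal distributions with the SD of each probe. That simulation held no separate arrays and no dye orientations, so it cannot speak to their effects. The members named by rule, 78 probes of 56 genes, were any with an adjusted p under 0.05, up to 3 genes per role with the smallest p of the pair mean and up to 3 with that of the dye term, members fixed for their known role, the lowest and highest SD per role, and up to 5 genes whose probes differed most in opposite directions. Others named as examples were chosen after their values were seen. The members and lists were chosen with earlier results of these data known. Alternatives covered the reading of the swap, centring, scaling, each orientation alone, single arrays with the mouse as a random block, the number of mice required, extreme ratios set to missing, variance moderation, and each mouse left out.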

Additional observations from a re-analysis of the deposited data

Results flagged for a closer look

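In 11 of the 83 groups of pair means examined, 1 mouse lay far from the others by Dixon's criterion. Chance alone meets it in about 1 of 20 groups that were not picked by their values. Of the 83 groups, 78 were named probes, many of them picked by their p, their SD or the gap between probes. The count of 11 therefore cannot be set against that rate. Mouse 3 was the distant one for Psmb2 probe 926, at 1.51 against -0.21 to -0.014 in the others, for Psmb8, at 0.50 against -0.065 to 0.095, and for Psmc3, at -2.93 against -0.65 to 0.039. Mouse 4 was distant for Psmd11 probe 6558, at -1.94 against -0.20 to 0.31, and for Psme3, at -2.27 against 0.10 to 0.48. It was also distant for Ube2l3 probe 18390, at 0.49 against -0.12 to -0.023, and for Usp19, at 7.64 against -0.95 to 0.18. Mouse 1 was distant for Ube2z probe 18225, at 0.37 against 0.15 to 0.19, and for Usp21, at -0.26 against 0.020 to 0.062. Mouse 2 was distant for Uba7, at -0.58 against 0.011 to 0.13, and mouse 5 for Usp20 probe 135, at -1.93 against -0.26 to 0.37. Without the distant mouse the means became -0.094 for Psmb2, -0.020 for Psmd11, 0.35 for Psme3, 0.17 for Ube2z and 0.026 for Usp20.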

How the results depend on the processing

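With the columns of the other dye orientation turned, which makes the dye term the difference from the pool, the median of the member genes was 0.0068 in place of -0.041, that of the regulators 0.0211 in place of -0.11 and that of the deubiquitinases 0.0629 in place of -0.029. From the arrays with the mutant in Cy3 alone, the member median was -0.0877 and the deubiquitinase median -0.107. On the single arrays with the mutant in Cy5, the deubiquitinase medians fell on both sides of 0, from -0.092 to 0.25. Leaving out each mouse moved the regulator median between -0.153 and -0.0475, the latter without mouse 3. Over 16 settings the median of the E1, E2 and E3 genes was negative in 16, those of all members and of the regulators in 15, that of the core in 13 and that of the deubiquitinases in 12. These settings reuse the same arrays, so the counts are no independent evidence for a sign. They also include the other reading and the single orientations, which measure something else. The mouse medians of the E1, E2 and E3 genes lay on both sides of 0, from -0.070 to 0.084. The pair mean gave 0 called member probes in all settings run, with a smallest adjusted p of a member from 0.860 to 0.944 by limma. The arrays of a single orientation, which give no pair mean, also gave 0, with 0.0831 for the mutant in Cy5 and 0.391 for it in Cy3. For the dye term, scaling between arrays gave 2 member probes and 257 probes in all (chosen after seeing the data), omitting variance moderation gave 4 probes, none a member, and leaving out each mouse gave 0 to 1, the 1 without mouse 1. Of the 78 named probes, 41 had the opposite sign under the other reading, 69 moved by over 1.5 times when a mouse was left out and 32 changed sign. Some ratios recurred exactly between probes of different genes. On the Cy3 array of mouse 3, for example, -1.449 was read for Psmb3, Psmd9, Psme3, Ube2c and Usp37 probe 15109, and -3.297 for Psma7 and Psmd4. On the Cy5 array of mouse 4, 1.9 was read for Psmd9 and Ube2c, and on that of mouse 5, 1.623 for Psmd9 and Uba6. Why they recurred was not tested. Without intensities no limit from dim signal can be given, and 5 mice set the precision.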
